A study of Mesocricetus auratus with 24 samples.

Results

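The sound response shared by both hamster strains was taken from 24 arrays of inferior colliculus (IC) RNA, which are all 24 arrays of the series. The 12 arrays of stimulated animals were set against the 12 of naïve animals. For each gene, stimulated minus naïve was estimated within the Syrian strain and within the GASH/Sal strain, and the mean of the 2 differences is called the shared difference here. A total of 19938 genes were tested, and the genes described in most detail are those whose difference had the same sign in both strains. All values are log2 signals, so that a difference of 1 would be a doubling.

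The 4 groups held 6 arrays each. A naïve and a stimulated group came from control Syrian hamsters, and a naïve and a stimulated group came from GASH/Sal hamsters. GASH/Sal, the genetic audiogenic seizure hamster of Salamanca, develops seizures when exposed to loud sound. All animals were 16 weeks old, and the IC of stimulated animals was taken 60 min after the sound. The labels call the arrays of a group biological replicates and name no allele or drug. By the study's methods, which describe younger hamsters, loud sound brings generalized tonic-clonic seizures in GASH/Sal hamsters and none in control Syrian hamsters. The seizure outcome of the array animals is not given here. If they responded alike, the stimulated groups share the sound but not the seizure. Within GASH/Sal the sound and any seizure cannot be told apart. The arrays were designed for the mouse, and 14122 of the 19938 gene symbols (70.8%) also stand in the hamster genome annotation. A hamster transcript that matches a mouse probe poorly gives a low signal, so a low signal does not show a low transcript level, and percentiles of signal below describe the arrays alone.

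The IC is the midbrain station of the auditory pathway, and it is the site where audiogenic seizures begin in several rodent models. Neurons that fire strongly switch on immediate-early genes within minutes, with no need for new protein. Many of them encode transcription factors (Fos, Jun, Egr, Nr4a, Npas4), and others act at the synapse (Homer1, Arc) or restrain signalling (Rgs2, Dusp1). Stress hormones reach the brain on a similar time scale and act through the glucocorticoid receptor on genes such as Sgk1, Per1, Klf9 and Nfkbia.

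The label of the tissue was set beside its markers, although signals of different probes cannot show which tissue it was. The median percentile of mean signal was 81.3 for the 13 midbrain markers tested, 54.8 for 12 cerebellar and 67.0 for 7 telencephalic markers. Slc17a6, the vesicular glutamate transporter of midbrain excitatory neurons, stood at the 97.7th percentile, and Tfap2d, a transcription factor of the developing tectum, stood at the 93.4th. The cerebellar granule cell subunit Gabra6 stood at the 20.3rd percentile, while the telencephalic marker Emx1 stood at the 82.4th. A pair of arrays correlated less with the others, at a median of 0.9687 for stimulated Syrian replicate 4 and 0.9710 for naïve GASH/Sal replicate 6, against at least 0.9795 for the other 22. For genes below with a shared difference of at least 0.1 in size that moved more than 1.5-fold without one of them, the value without it is given. The labels also name the animals in 2 styles, one for replicates 1 to 3 and one for replicates 4 to 6 of every group. These are called label series A and B here. Neither the labels nor the study say what the styles mean. Each series held 12 arrays with 3 in every group, and the series was a term in the fit behind every value, unless a value is said to be from 1 series alone.

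Fos, the AP-1 transcription factor used most widely as a marker of neuronal activity, was the one gene that rose after sound at an adjusted p under 0.05. In naïve Syrian hamsters its signal ran from 5.89 to 6.29 with a median of 5.99, and in stimulated Syrian hamsters from 6.25 to 7.0 with a median of 6.48. In naïve GASH/Sal hamsters it ran from 5.84 to 6.20 with a median of 5.97, and in stimulated GASH/Sal hamsters from 6.29 to 7.03 with a median of 6.76. All 6 stimulated arrays of each strain lay above the mean of their naïve group. The GASH/Sal groups did not overlap, which held for 45 of the 19938 genes in that strain (0.226%) and for 58 in Syrian hamsters (0.291%). The Syrian groups of Fos overlapped by 1 stimulated array at 6.25.

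The shared difference of Fos was 0.58 (SE 0.084, 95% interval 0.41 to 0.75, n = 12 against 12), a 1.5-fold change, with an adjusted p of 0.00222 in limma. The difference was 0.48 in Syrian and 0.68 in GASH/Sal hamsters. The strains differed by 0.20 in this response, with a 95% interval from -0.14 to 0.54, so that neither an equal nor an unequal response was shown. Leaving out each array in turn kept the shared difference between 0.53 and 0.62, and the largest adjusted p in these fits was 0.00828. Without both arrays that stood apart, it was 0.58 with an adjusted p of 0.00595.

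Fos was 1 of 19938 genes called higher, or 0.00502% of those tested, and none was called lower (0%). At an unadjusted p under 0.05, limma gave 1041 genes higher and 433 lower, which is 7.39% of all genes. With each array centred on its median, the same threshold gave 803 higher and 590 lower, a higher share of 57.6% against 70.6%. The next adjusted p after Fos was 0.114, for Klf9, Arrdc3 and Nr4a3. The count of called genes was sensitive to single arrays. It was 12 without stimulated GASH/Sal replicate 6, 5 without naïve GASH/Sal replicate 5 and 2 without stimulated Syrian replicate 6, and in the remaining 21 fits it was 1. No gene was called within the Syrian strain, where 1323 genes had an unadjusted p under 0.05. None was called within GASH/Sal either, where 889 had an unadjusted p under 0.05 and Fos came nearest with an adjusted p of 0.0576. In 5 of the 24 fits without 1 array, the GASH/Sal count was 1 and not 0. The arrays left out in these fits were stimulated Syrian replicates 2 and 3, naïve GASH/Sal replicate 4 and stimulated GASH/Sal replicates 2 and 6.

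Genes that moved the same way in both strains were taken as those with an unadjusted p under 0.05 in each strain and the same sign. The 2 within-strain differences share no array. They do share the same estimate of the spread for each gene, and both draw on the same label series. Passing in both strains is thus not 2 independent tests. The threshold gave 69 genes higher in both strains (0.346% of those tested) and 26 lower in both (0.130%). A further 15 genes passed the same threshold with opposite signs (0.0752%). With arrays centred on their medians, the counts were 52 higher and 34 lower, a higher share of 60.5% against 72.6%. The 69 shared differences lay between 0.17 and 0.58 with a median of 0.24, and the 26 lay between -0.40 and -0.15 with a median of -0.23. These genes were chosen by these same differences, so their sizes are a description and not a test. Just inside the threshold lay Nrl and Cfap157, with the larger of their 2 p-values at 0.0488 and 0.0490. Just outside lay Kdm7a at 0.0502 and Ccdc68 at 0.0504. No gene had groups that did not overlap in both strains at once.

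**Figure D1:**
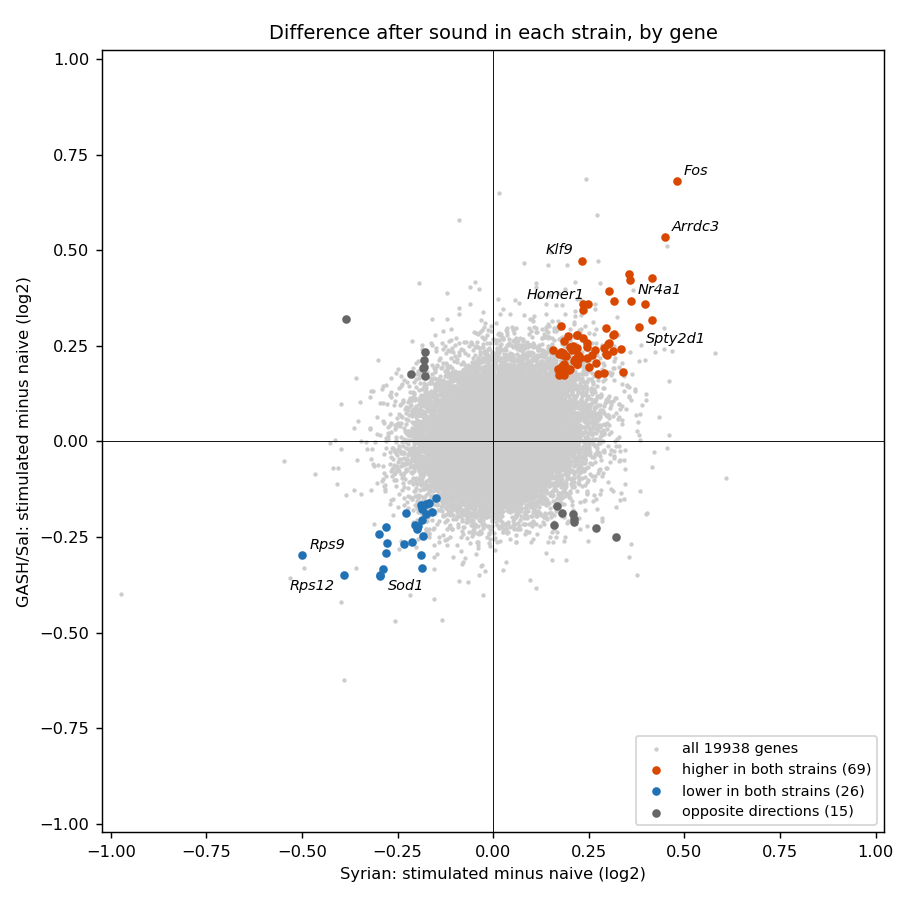
Stimulated minus naïve in Syrian hamsters (horizontal axis, log2) against the same difference in GASH/Sal hamsters (vertical axis, log2) for 19938 genes, with 6 arrays per group. Coloured points passed an unadjusted p under 0.05 in both strains, 69 higher in both, 26 lower in both and 15 with opposite signs. Of the 69 genes higher in both, Fos had the largest shared difference and lies at 0.48 and 0.68.

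Among the 69 genes (0.346% of the 19938 tested) were 3 of the 28 immediate-early transcription factors tested. They were Fos and the orphan nuclear receptors Nr4a1 and Nr4a3. In Syrian hamsters Nr4a1 ran from 5.22 to 5.55 (median 5.36) without sound and from 5.27 to 6.23 (median 5.71) after it. In GASH/Sal hamsters it ran from 5.11 to 5.37 (median 5.32) without sound and from 5.31 to 6.17 (median 5.74) after it. The stimulated arrays were thus spread widely, with the lowest of them inside the naïve range in each strain. The shared difference of Nr4a1 was 0.39 (SE 0.091, limma adjusted p 0.170).

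Nr4a3 spread less between arrays. Its naïve medians were 4.76 in Syrian and 4.68 in GASH/Sal hamsters, and its stimulated medians were 5.0 and 5.11. All 6 stimulated arrays of each strain lay above the naïve mean, and the groups still overlapped in both strains, with the lowest stimulated arrays at 4.77 and 4.73. The shared difference was 0.30 (SE 0.059, limma adjusted p 0.114), and it was 0.235 in Syrian and 0.36 in GASH/Sal hamsters.

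Klf9, a Krüppel-like transcription factor that glucocorticoids and thyroid hormone induce, had the second lowest p. In Syrian hamsters its signal ran from 6.55 to 7.15 (median 6.82) without sound and from 6.95 to 7.20 (median 7.04) after it. The GASH/Sal values ran from 6.28 to 7.20 (median 6.67) without sound and from 6.85 to 7.45 (median 7.23) after it. The naïve groups were the wide ones for this gene, and within each strain their highest values came from label series B. The shared difference was 0.35 (SE 0.0685, limma adjusted p 0.114). It was 0.51 in series A and 0.195 in series B.

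Arrdc3, an arrestin-domain protein that acts in the trafficking of membrane receptors, had the second largest shared difference of the 69, at 0.49 (SE 0.097, limma adjusted p 0.114). Its naïve medians were 5.80 in Syrian and 5.85 in GASH/Sal hamsters, and both stimulated medians were 6.24. The array naïve GASH/Sal replicate 6, one of the pair that stood apart, was the lowest of its group at 5.03. Without both of those arrays the shared difference was 0.46, and its adjusted p was 0.0261, so that Arrdc3 was then called.

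Nfkbia encodes the inhibitor that holds NF-kappa-B in the cytoplasm and is itself induced by NF-kappa-B and by glucocorticoids. Its medians went from 5.55 to 5.80 in Syrian and from 5.46 to 5.86 in GASH/Sal hamsters, with a shared difference of 0.29 (SE 0.063, limma adjusted p 0.141). Homer1, a scaffold of the postsynaptic density whose short form is induced by activity, had medians of 5.15 and 5.40 in Syrian hamsters without and with sound. The medians in GASH/Sal hamsters were 5.19 and 5.49, and the shared difference was 0.30 (SE 0.068, limma adjusted p 0.143). All 12 stimulated arrays of Homer1 lay above the naïve mean of their strain, and its groups overlapped in both strains.

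**Figure D2:**
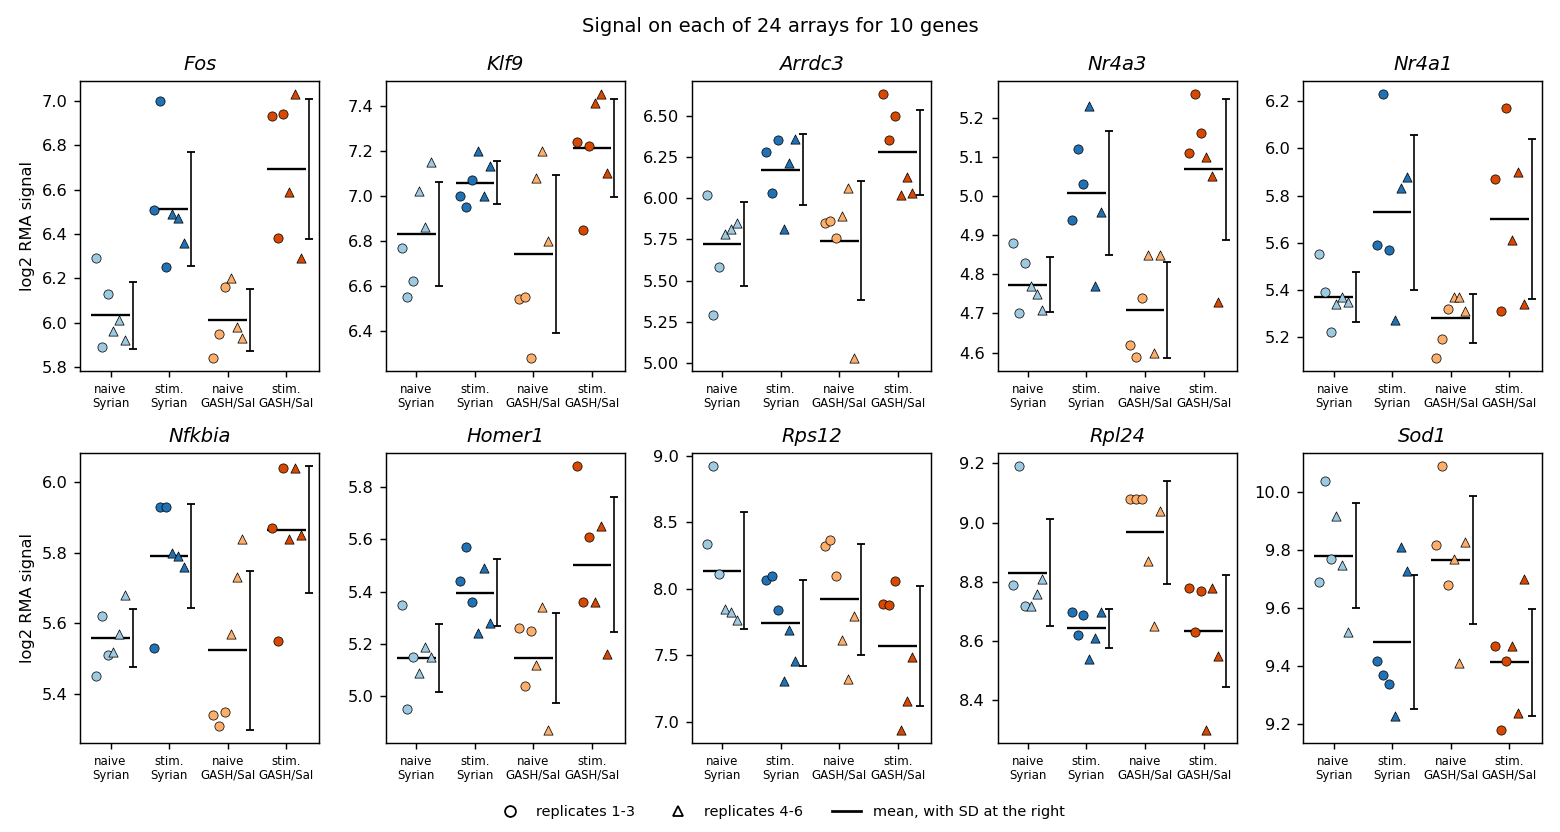
Log2 RMA signal on each of the 24 arrays for 10 genes (vertical axis, own scale per gene) in the 4 groups, with circles for replicates 1 to 3 and triangles for replicates 4 to 6. Lines are group means and the bar at the right of each group is the SD (n = 6). All stimulated arrays of Fos lay above the naïve mean of their strain, and the stimulated GASH/Sal arrays, from 6.29 to 7.03, did not overlap the naïve ones.

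Other genes of the 69 with a low shared p were of mixed kinds. Spty2d1, a histone chaperone, separated in Syrian hamsters, from 4.59 to 4.87 without sound and from 4.99 to 5.28 after it. Its GASH/Sal groups overlapped, and the shared difference was 0.34 (SE 0.071, limma adjusted p 0.130). Rbm4b, an RNA-binding protein, also separated in Syrian hamsters, from 5.98 to 6.12 without sound and from 6.18 to 6.73 after it. The shared difference of Rbm4b was 0.26 (SE 0.057, limma adjusted p 0.141). Rnf182, a brain-enriched ubiquitin ligase, differed by 0.225, and Zfp626, a zinc finger gene, by 0.36.

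A part of the 69 belonged to chemoreceptor families, best known from the nose. By symbol, 10 were odorant, vomeronasal or related receptors, which is 14.5% of the set against 6.17% of all genes tested. Vmn1r80, a vomeronasal receptor, stood at the 10.2nd percentile of mean signal, and its naïve values ran from 2.78 to 3.03 over both strains. Its stimulated values ran from 2.99 to 3.67, and its shared difference was 0.29 (limma adjusted p 0.121). Olfr1301, an odorant receptor at the 14.1st percentile, differed by 0.22. Neither symbol was in the hamster annotation, and nor was the symbol of any other chemoreceptor gene tested. Over the 1230 chemoreceptor genes tested, the median shared difference was 0.0325 against 0.0135 for other genes, and 40.2% were above 0 in both strains. The 59 other genes of the set had a median percentile of 61.2, against 52.9 for all genes outside these families. Of their symbols, 47 were in the hamster annotation (79.7%, against 75.5%). The remaining genes named by rank, Lexm and 4930519F09Rik, differed by 0.28 each and stood at the 15.8th and 28.5th percentiles.

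Most immediate-early transcription factors lay above 0. Of 28 tested, 26 had a shared difference above 0, against 11627 of all 19938 genes (58.3%), and 20 were above 0 in both strains, against 34.7% of all genes. Their median was 0.12, against 0.015 for all genes, with 0.066 in Syrian and 0.14 in GASH/Sal hamsters. At an unadjusted p under 0.05, 9 were higher in the shared response and none was lower, against 5.22% of all genes higher and 2.17% lower. Series A gave a median of 0.13 and series B one of 0.12, and it stayed between 0.10 and 0.14 when any one array was left out. Members were chosen with earlier results of these data known, so these counts are a description of the family.

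**Figure D3:**
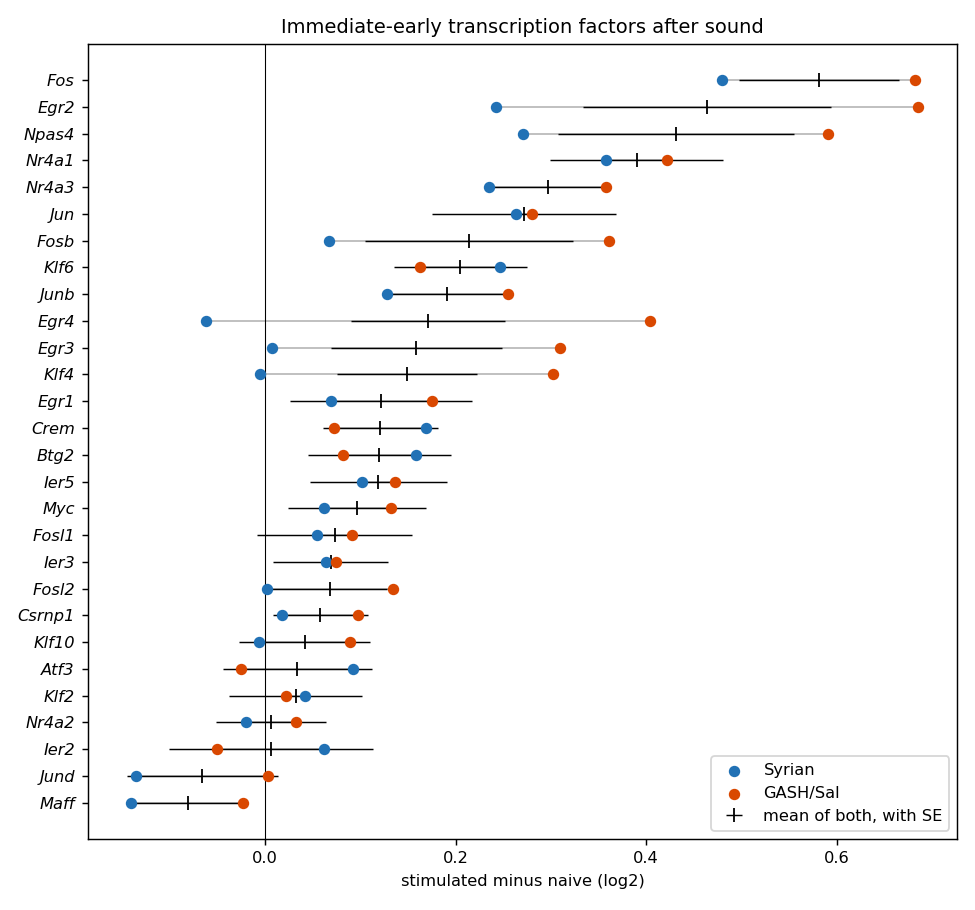
Stimulated minus naïve (horizontal axis, log2) for 28 immediate-early transcription factors in Syrian and GASH/Sal hamsters, with the shared difference and its SE in black. Of the 28, 26 had a shared difference above 0, and Egr4 was at -0.062 in Syrian hamsters (0.062 without stimulated Syrian replicate 4) and at 0.40 in GASH/Sal hamsters.

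The values of the 2 strains lay apart for several members. Egr2, a zinc finger factor of the Egr family, ran from 5.15 to 5.35 in naïve Syrian hamsters and from 5.11 to 6.42 in stimulated ones. In GASH/Sal hamsters it ran from 5.04 to 5.70 without sound and from 5.25 to 6.45 after it. Its stimulated Syrian median was 5.36 and its stimulated GASH/Sal median 6.22, and in Syrian hamsters one array, stimulated replicate 2, stood far above the rest. The Syrian difference of Egr2 was 0.24, and 0.0425 without that array. The shared difference was 0.46 (SE 0.13, limma adjusted p 0.359). Npas4, a factor that neurons induce on calcium entry, had the same array highest at 6.33, and its stimulated medians were 5.40 in Syrian and 5.89 in GASH/Sal hamsters. Its shared difference was 0.43 (SE 0.12, limma adjusted p 0.370), 0.27 in Syrian and 0.59 in GASH/Sal hamsters. Without that array the Syrian difference of Npas4 was 0.11. The interval of the difference between strains held 0 for both genes, from -0.088 to 0.97 for Egr2 and from -0.19 to 0.83 for Npas4.

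Egr4 differed by -0.062 in Syrian and by 0.40 in GASH/Sal hamsters, where the groups did not overlap. The negative Syrian value rested on stimulated replicate 4, the lowest array at 5.26, and it was 0.062 without that array. In Syrian hamsters Egr4 differed by 0.15 in series A and by -0.28 in series B. Its shared difference was 0.17, and 0.235 without both arrays that stood apart. The difference between the strains was 0.47 (95% interval 0.14 to 0.80, unadjusted p 0.00725 and adjusted p 1.0 in limma). Egr3 differed by 0.0074 in Syrian hamsters, a value whose sign turned without some single arrays, and by 0.31 in GASH/Sal hamsters. Egr1 differed by 0.070 and 0.175, with a shared difference of 0.12. Without stimulated Syrian replicate 4, at 5.75 the highest of its group, the Syrian value of Egr1 was -0.032 and the shared one 0.071. Without stimulated GASH/Sal replicate 4, also the highest of its group, at 5.85, the GASH/Sal value was 0.052 and the shared one 0.061. Junb differed by 0.13 and 0.255. Arc, an activity-induced gene that acts in synaptic plasticity, differed by 0.0055 and 0.071 and had 3 of 6 stimulated arrays above the naïve mean in each strain.

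The activity-regulated effectors had a median of 0.097, with 25 of 29 above 0, against 58.3% of all genes. At an unadjusted p under 0.05, 11 were higher and none lower, against 5.22% and 2.17% of all genes. Homer1 and Gadd45g, a growth arrest gene induced by stress and activity, were higher in both strains at the unadjusted threshold. Gadd45g differed by 0.46 in series A and by 0.071 in series B. The list median was 0.15 in series A and 0.044 in series B. Rgs2, a regulator of G-protein signalling, and Per1, a clock gene that activity and glucocorticoids also induce, had shared differences of 0.37 and 0.30. In series A these were 0.70 and 0.53, and in series B 0.044 and 0.074. The difference between the series had an unadjusted p of 0.0030 for Rgs2 and 0.00181 for Per1, and adjusted p of 0.190 and 0.157 in limma.

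Glucocorticoid-induced genes had a median of 0.0845, with 16 of 20 above 0 (58.3% of all genes). Some genes stood in several lists, so the counts of different lists are not separate observations. Per1 was also listed with the effectors and the clock genes, Klf9 with the Krüppel-like factors and Nfkbia with the inflammatory genes. Of the 20, 7 were higher and none lower at an unadjusted p under 0.05, where 5.22% of all genes were higher and 2.17% lower. Klf9 and Nfkbia were in the set of 69. Sgk1, a kinase that glucocorticoids induce, ran from 5.04 to 5.34 in naïve Syrian hamsters and from 5.27 to 5.88 in stimulated ones. In GASH/Sal hamsters it ran from 4.98 to 5.87 without sound and from 5.28 to 6.03 after it. The shared difference of Sgk1 was 0.37 (SE 0.105, limma adjusted p 0.359). It was 0.69 in series A and 0.048 in series B, an unadjusted p of 0.000348 and an adjusted p of 0.108 for the difference between them. Sgk1 differed in GASH/Sal hamsters by 0.84 in series A and by -0.25 in series B.

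Heat shock chaperones had a median of 0.064, with 19 of 22 above 0 (58.3% of all genes). Of the 22, 7 were higher and none lower at an unadjusted p under 0.05, where 5.22% of all genes were higher and 2.17% lower. Hsph1, Dnajb1 and Chordc1, all partners of the Hsp70 or Hsp90 machinery, were higher in both strains at the unadjusted threshold. Hsph1 had medians of 6.09 and 6.36 in Syrian hamsters without and with sound, and of 6.01 and 6.38 in GASH/Sal hamsters. Its shared difference was 0.25 (SE 0.061, limma adjusted p 0.214), 0.45 in series A and 0.0455 in series B. Dnajb1 showed a like gap, at 0.64 and 0.041. The list median was 0.15 in series A and 0.0255 in series B, and 0.043 without naïve GASH/Sal replicate 6. The median of endoplasmic reticulum stress genes was 0.061 with 17 of 20 above 0, and it was 0.12 in series A and 0.0036 in series B.

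The remaining response lists had medians between -0.013 and 0.11. Splicing kinases and SR proteins had a median of 0.11 with 17 of 22 above 0. Clk1, a kinase of SR proteins, differed by 0.15 and Srsf5 by -0.11. Srsf5 differed by -0.055 without stimulated Syrian replicate 4 and by -0.17 without naïve GASH/Sal replicate 6. Without naïve GASH/Sal replicate 6 the median of this list was 0.047. RGS regulators had 14 of 16 above 0 with a median of 0.058, and Krüppel-like factors had 10 of 13 above 0 with a median of 0.042. Klf7 was among them at 0.40, with 0.65 in series A and 0.145 in series B. MAP kinase phosphatases and feedback inhibitors had 12 of 16 above 0, a median of 0.057 and no member at an unadjusted p under 0.05. Dusp1, the first of them by p, had a shared difference of 0.13, but 0.26 in Syrian and -0.0059 in GASH/Sal hamsters (unadjusted p 0.0427 and adjusted p 1.0 in limma for the difference between strains). Circadian clock genes were at 11 of 20, inflammatory and NF-kappa-B genes at 11 of 21, and neuropeptides and granins at 12 of 25. Among the neuropeptides Adcyap1 (PACAP) differed by 0.17, Cck by -0.13 and Npy by -0.027.

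Of the 26 genes lower in both strains (0.130% of the 19938 tested), 4 were among the 55 cytosolic ribosomal proteins tested. These proteins are parts of the machine that translates mRNA. The 4 genes were Rps12, Rpl24, Rps9 and Rps21. Rps12 ran from 7.77 to 8.92 (median 7.98) in naïve Syrian hamsters and from 7.31 to 8.10 (median 7.77) in stimulated ones. In GASH/Sal hamsters it ran from 7.32 to 8.37 (median 7.95) without sound and from 6.94 to 8.06 (median 7.69) after it. The groups overlapped widely, and 11 of 12 stimulated arrays lay below the naïve mean of their strain. The shared difference was -0.37 (SE 0.0785, limma adjusted p 0.130), -0.39 in series A and -0.35 in series B.

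Rpl24 was tighter. In Syrian hamsters its groups did not overlap, at 8.72 to 9.19 without sound and 8.54 to 8.70 after it. The GASH/Sal groups overlapped by 1 naïve array at 8.65, and the medians were 9.06 and 8.70. Its shared difference was -0.26 (SE 0.0595, limma adjusted p 0.165). Rps9 differed by -0.40 (SE 0.092, limma adjusted p 0.170), with naïve Syrian replicate 2 highest at 7.72 and stimulated Syrian replicate 4 lowest at 5.98. It was -0.32 without both arrays that stood apart.

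Over the 55 cytosolic ribosomal proteins tested, 10 were above 0 and 45 below, 29 were below 0 in both strains (against 21.4% of all genes), and 13 were lower and none higher at an unadjusted p under 0.05 (against 2.17% and 5.22% of all genes). The median was -0.064. It was -0.0089 in Syrian and -0.105 in GASH/Sal hamsters, and -0.023 in series A and -0.11 in series B. Without both arrays that stood apart it was -0.038, and with any one array left out it ran from -0.080 to -0.030, the last without naïve GASH/Sal replicate 6. Ribosomal protein genes have many near-identical processed copies, which probes cannot always tell apart. Oxidative phosphorylation genes had a median of -0.023, with 49 of 72 below 0 (against 41.7% of all genes), 6 lower and none higher at an unadjusted p under 0.05 (against 2.17% and 5.22%), and the median was 0.013 in series A and -0.071 in series B. Cox4i1, a subunit of cytochrome c oxidase, differed by -0.18. Mitochondrial ribosomal proteins had 30 of 58 above 0, with Mrps11 at -0.25 and Mrps25 at 0.16.

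Outside the ribosome, Sod1, the cytosolic superoxide dismutase, stood at the 99.7th percentile of signal. Its medians were 9.76 and 9.40 in Syrian hamsters without and with sound, and 9.79 and 9.45 in GASH/Sal hamsters. Its groups overlapped in both strains, and 11 of 12 stimulated arrays were below the naïve mean of their strain. The shared difference was -0.32 (SE 0.0785, limma adjusted p 0.206), -0.48 in series A and -0.17 in series B. Sgo2a, a shugoshin of the centromere, had the lowest p of the set at a low signal, with medians of 3.88 and 3.60 in Syrian and 3.79 and 3.51 in GASH/Sal hamsters. Its shared difference was -0.325 (SE 0.067, limma adjusted p 0.126). The probe set named Mir17 differed by -0.27 and the small nucleolar RNA Snora21 by -0.25. Hint2, Snx21, Masp2, Gzmg, Rmi2, Olfr414 and 4921524J17Rik differed by -0.29 to -0.18.

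**Figure D4:**
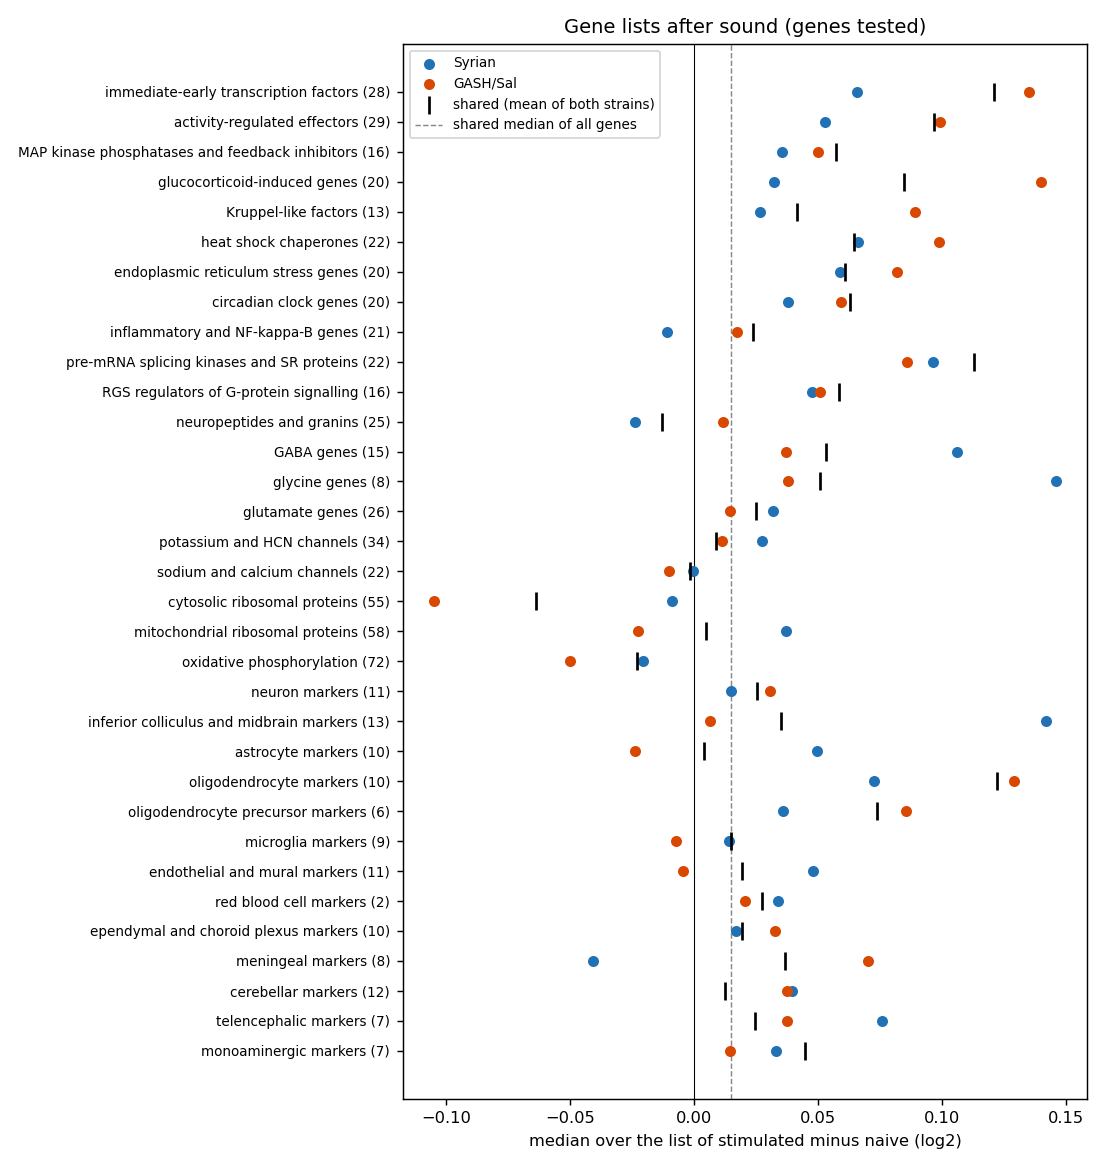
Median over each gene list of stimulated minus naïve (horizontal axis, log2) in Syrian hamsters, in GASH/Sal hamsters and as the shared difference, with the number of genes tested in brackets. The dashed line is the median of all genes, 0.0147. Immediate-early transcription factors lie at 0.12 and cytosolic ribosomal proteins at -0.064.

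For genes of neuronal signalling, the shared medians were 0.053 for GABA genes, 0.051 for glycine genes and 0.025 for glutamate genes. They were 0.0086 for potassium and HCN channels and -0.0015 for sodium and calcium channels, against 0.0147 for all genes. In Syrian hamsters the medians were 0.106 for GABA and 0.146 for glycine genes, against 0.0185 for all genes. In GASH/Sal hamsters they were 0.037 and 0.038, against 0.0127. The glutamate and channel lists ran from -0.00042 to 0.032 in Syrian and from -0.0104 to 0.0143 in GASH/Sal hamsters. The members with the lowest p were Gabrg1 (0.26) and Gad1 (-0.11) of the GABA list, and Glra3 (0.35) of the glycine list. All 8 glycine genes were above 0 in the shared response, and 6 were above 0 in both strains. The glycine median was 0.115 in series A and -0.0020 in series B, and the GABA median was 0.078 and 0.0145. In Syrian hamsters Glra3 differed by 0.85 in series A and by 0.080 in series B. Grin2d differed by 0.17 and Grik5 by -0.080, Kcnn3 by 0.16 and Kcnt2 by -0.12, and Scn3b by 0.13 and Cacna1h by -0.13. Naïve GASH/Sal replicate 6 was the lowest array of its group for Gabrg1, at 3.34 against 4.43 for the next, and for Glra3, at 4.17 against 5.37. Without that array Gabrg1 differed by 0.17 in the shared response and by 0.10, not 0.29, in GASH/Sal hamsters. The GASH/Sal difference of Glra3 was 0.24 with the array and 0.024 without it, while its shared difference was 0.325 without both arrays that stood apart. Grik5 differed by -0.032 without naïve GASH/Sal replicate 6.

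Markers of other cells were checked beside these results, because in whole tissue fewer cells of a type and less RNA per cell cannot be told apart. Oligodendrocyte markers lay higher in the stimulated groups. Of 10 tested, 9 were above 0 (against 58.3% of all genes), and the median was 0.12. The list median was 0.17 in series A and 0.061 in series B. At an unadjusted p under 0.05, 5 were higher and none lower, where 5.22% of all genes were higher and 2.17% lower. Their mean signal ran from 5.56 to 5.83 in naïve and from 5.73 to 5.89 in stimulated Syrian hamsters. It ran from 5.69 to 5.95 in naïve and from 5.83 to 6.02 in stimulated GASH/Sal hamsters. The groups overlapped in both strains, and the part of these cells in the other results was not tested. Mobp, a myelin protein, differed by 0.18 and Cnp by -0.012. Oligodendrocyte precursor markers had 5 of 6 above 0 with a median of 0.074, with Olig2 at 0.125 and Sox10 at -0.035.

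The remaining marker lists had medians of 0.025 for neurons, 0.035 for the IC and midbrain, 0.0040 for astrocytes, 0.015 for microglia and 0.019 for endothelial and mural cells. Ependymal and choroid plexus markers were at 0.019, meningeal markers at 0.037, cerebellar at 0.0125, telencephalic at 0.024, monoaminergic at 0.045 and red blood cell markers at 0.027, the last with 2 genes tested. None of these lists held a called gene. Of the genes that the study followed up by other methods, Rgs2 is given above, Abcb1a (a drug efflux pump) differed by 0.15 and Ttr (transthyretin) by -0.048, and the latter stood at the 19.3rd percentile of signal. Its 11 regulators from RNA-seq had 10 above 0 and a median of 0.17. Klf7 differed by 0.40 and Traf5 by -0.11. These lists were the study's own choice and are not independent evidence of a direction. Actb, the reference gene of the study, differed by -0.065 (SE 0.050, limma adjusted p 0.777).

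The strains were then compared across all genes. Of 19938 genes, 6922 were above 0 in both strains (34.7%) and 4262 below 0 in both (21.4%), so that 56.1% had the same sign. Pearson's r across genes between the Syrian and the GASH/Sal difference was 0.192 and Spearman's rho 0.164. The r was 0.293 over the brighter genes and 0.0874 over the dimmer ones, divided at the median signal. Genes share arrays and are not independent replicates. Of the 1323 genes with an unadjusted p under 0.05 in Syrian hamsters, 63.9% had the same sign in GASH/Sal hamsters. Of the 889 such genes in GASH/Sal hamsters, 66.3% had the same sign in Syrian ones. Among those chosen as higher the shares were 66.6% and 70.0%, against 55.8% and 57.5% of all genes above 0 in the strain looked up. Among those chosen as lower they were 59.0% and 59.4%, against 44.2% and 42.5% of all genes below 0.

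No gene's response differed between the strains at an adjusted p under 0.05, where 734 genes had an unadjusted p under 0.05. The lowest adjusted p of this test was 1.0. The median SE was 0.127 for the difference between strains, against 0.063 for the shared difference and 0.0895 within a strain. What size of unequal response these arrays could detect was not tested, so equal responses were not shown. The 15 genes with opposite signs in the 2 strains included En2, a midbrain and hindbrain homeobox gene, at 0.21 in Syrian and -0.21 in GASH/Sal hamsters, and Creb3l2 at -0.18 and 0.17. Klk1b24, Csta2 and others of the 15 lay low in signal, with a median at the 21.6th percentile. These genes were chosen after their values were seen.

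The label series were compared in the same way. Across genes, the shared differences of the 2 series had an r of -0.108, and 45.7% of genes had the same sign in both. Series A alone gave 444 called genes in limma, 338 higher and 106 lower, and series B alone gave none, with 1066 at an unadjusted p under 0.05. Of the 444 genes, 211 (47.5%) had the same sign in series B, and 15 of these also had an unadjusted p under 0.05 there. The higher ones were above 0 in series B in 52.1% of cases, against 57.8% of all genes. At an unadjusted p under 0.05 in both series, 42 genes were higher in both, 18 lower in both and 139 opposite. The median SE was 0.074 in series A and 0.0955 in series B, and both arrays that stood apart were in series B. One gene, Pip5k1b, differed between the series at an adjusted p under 0.05 in limma (0.425 in series A and -0.36 in series B, adjusted p 0.00283), and 2513 genes (12.6%) did so at an unadjusted p under 0.05. It was named after its values were seen.

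Fos lay above 0 in each series. Its shared difference was 0.62 (SE 0.12) in series A and 0.54 (SE 0.11) in series B, with unadjusted p of 3.71e-05 and 0.000106 in limma. By p, Fos had rank 55 among all genes in series A. In series B it had the lowest p of all genes, with an adjusted p of 0.897. In the 2 strains it differed by 0.48 and 0.77 in series A and by 0.48 and 0.60 in series B. Of the genes named by rank in the set of 69, Vmn1r80, Zfp626, Lexm, Spty2d1, 4930519F09Rik and Olfr1301 also had an unadjusted p under 0.05 in each series, as did Nr4a1, Nr4a3, Nfkbia, Arrdc3, Homer1, Rbm4b and Rnf182. Klf9 had an unadjusted p of 0.0577 in series B. Of the genes lower in both strains, Rps12, Rpl24, Rps9, Rps21, Sgo2a, Hint2, Masp2, Gzmg and Rmi2 had an unadjusted p under 0.05 in each series. In the sets of 69 and 26, 68 and 26 genes had the sign of their set in both series. These signs, and the p-values of the named genes in each series, are partly fixed by how the genes were chosen. The genes were chosen on arrays of both series together, so a low p in each series is not a separate test. Genes with an unadjusted p under 0.05 and the same sign in both strains within series A alone were looked up in series B. Of these 498 genes, 48.4% had the same sign in series B. Among the higher ones the share was 51.7%, against 57.8% of all genes above 0 in series B. Among the lower ones it was 38.4%, against 42.2% of all genes below 0. Of the 31 such genes chosen in series B alone, 35.5% had the same sign in series A.

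**Figure D5:**
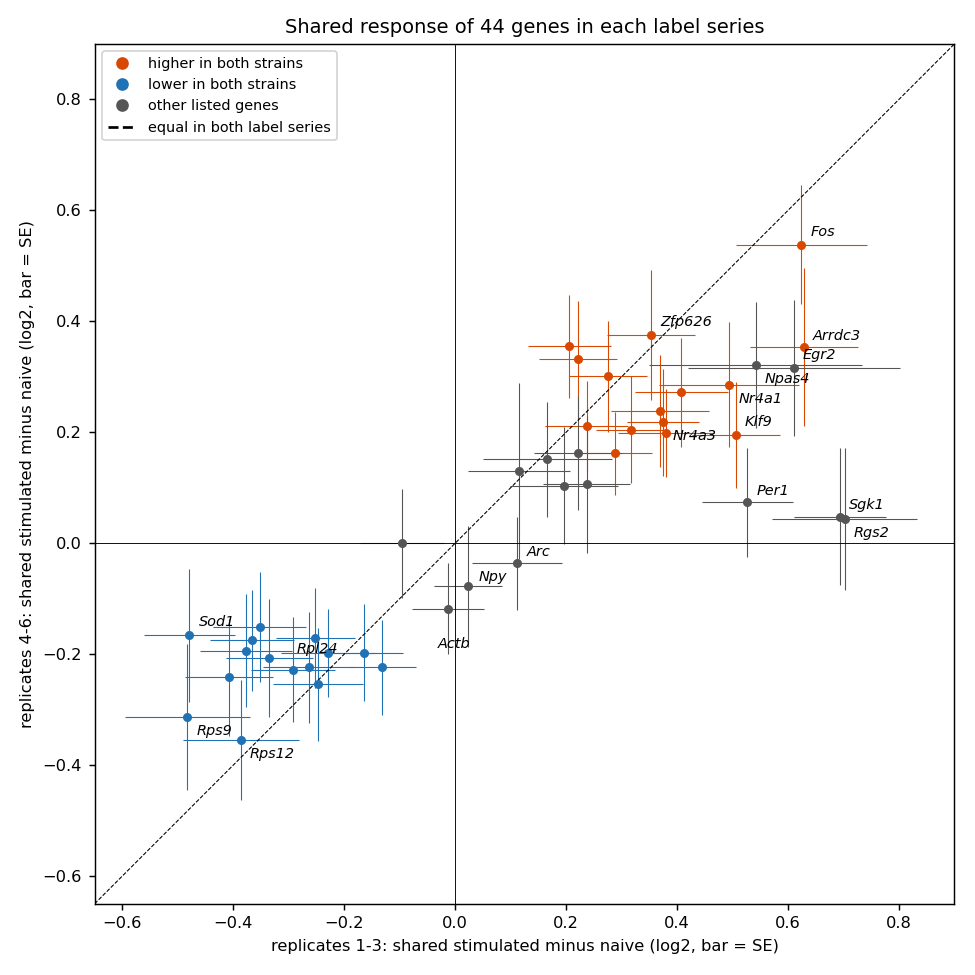
Shared stimulated minus naïve in replicates 1 to 3 (horizontal axis, log2) against replicates 4 to 6 (vertical axis, log2) for 44 genes, with SE bars and the line of equal values. Fos lies near the line at 0.62 and 0.54, and Sgk1, Rgs2 and Per1 lie far to its right at 0.69, 0.70 and 0.53 against 0.048, 0.044 and 0.074.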

How the data were processed

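RNA of the inferior colliculus of 24 hamsters, 6 in each of 4 groups, was hybridised to mouse whole-transcript arrays. The authors deposited log2 signals per probe set after RMA, which removes background, puts all arrays on one distribution and combines the probes of a set. The submitters' processing notes name it without a version. Column medians lay between 4.50 and 4.65, and 0 columns were left out or identical to another. Arrays have no read depth, so their number limits the precision.

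Of 35556 probe sets, 21789 carried 1 gene symbol in the platform's annotation, 1621 carried several and 12146 had none listed. Probe sets with 1 symbol were used. For 999 genes with more than 1 such set, the set of highest mean stood for the gene, which left 19938 genes with no filter on dim signals.

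Groups came from the labels. Differences were fitted with limma 3.58.1 in R 4.3.3 (lmFit and eBayes at their defaults, two-sided, 19 residual degrees of freedom) on all 24 arrays, with the 4 groups and the label series as terms. P-values were adjusted by the Benjamini-Hochberg method over all genes with a threshold of 0.05, and the code was tested on simulated data. The study states no test for these arrays. Besides Fos, the called gene, the genes named are the 15 with the lowest shared p in each direction among those with an unadjusted p under 0.05 in both strains, 19 genes of a fixed list, and per gene list the selected members or else the lowest p in each direction. The members and the 36 gene lists were chosen with earlier results of these data known. The alternatives were other blocks, filters, row choices, scalings and fits, thresholds, each label series alone and each array left out. The fits without the pair of arrays that stood apart, the within-strain values without 1 array and the test between label series were chosen after seeing the data. No sequence is shown and the promoter motifs planned were not searched, since no sequence table was used here.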

Additional observations from a re-analysis of the deposited data

Results flagged for a closer look

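In 34 of 388 combinations of a gene and a group (8.76%), over the 97 genes named by rule, the highest or the lowest array stood apart from the other 5 by more than Dixon's critical value for 6 samples. Chance alone gives about 1 in 20. The values are log2 signals. Naïve GASH/Sal replicate 6 was the highest of its group for Egr1 (5.44), Npy (7.28) and Actb (9.43) and the lowest of its group for Arrdc3 (5.03), Gabrg1 (3.34), Glra3 (4.17) and Slc1a3 (6.05). Stimulated Syrian replicate 4 was the highest of its group for Lexm (3.97), Ndufa5 (6.82) and Emx2 (5.03) and the lowest of its group for Rps9 (5.98) and Srsf5 (5.94). Naïve Syrian replicate 2 was the highest of its group for Rpl24 (9.19) and Rps9 (7.72) and the lowest of its group for Dusp1 (5.11) and Klf7 (6.06). Stimulated GASH/Sal replicate 2 was the highest of its group for Ccdc153 (6.05) and the lowest of its group for 4930519F09Rik (3.99) and Cnp (5.90). Stimulated GASH/Sal replicate 4 was the highest of its group for Egr1 (5.85) and Egr4 (6.54) and the lowest of its group for Npy (6.63). Stimulated Syrian replicate 2 was the highest of its group for Fos (7.0), Egr2 (6.42) and Npas4 (6.33). Stimulated GASH/Sal replicate 3 was the highest of its group for Mrps25 (4.69) and the lowest of its group for Cacna1h (5.55). Stimulated GASH/Sal replicate 6 was the highest of its group for Dusp1 (5.69) and the lowest of its group for Adcyap1 (4.60). Naïve GASH/Sal replicate 1 was the highest of its group for 4921524J17Rik (6.26). Naïve GASH/Sal replicate 2 was the lowest of its group for Abcb1a (4.42). Naïve Syrian replicate 5 was the highest of its group for Slc6a4 (5.01). Stimulated GASH/Sal replicate 5 was the highest of its group for Gad1 (8.56). Stimulated Syrian replicate 5 was the lowest of its group for Masp2 (3.78). The array naïve GASH/Sal replicate 6, with the largest number of such genes, and stimulated Syrian replicate 4 are the pair that correlated least with the others. The response of 0 of the 97 genes differed between strains at the adjusted threshold in limma, and 3 had an unadjusted p under 0.05.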

How the results depend on the processing

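Fos was the one gene called in the shared response without the label series, with the replicate block (the replicate number 1 to 6 as a term), after either rescaling, with the mean of a gene's rows, above the median signal, with trend and robust eBayes, in the additive model and at an adjusted p of 0.10. The count was 444 in label series A alone, 0 in label series B alone (where the adjusted p of Fos was 0.897), 0 with every row of the table (adjusted p of Fos 0.0536), 14 with array weights and 2 without the pair of arrays that stood apart. With 1 array left out, it ran from 1 to 12. Each series holds 12 of the 24 arrays, and the cause of these changes was not tested. The Syrian count was 5 in series A and 2 for genes changed at least 1.5-fold whose unadjusted p was no more than 0.05. The GASH/Sal count was 7 in series A, 5 at 1.5-fold, and 1 above the median signal, with trend and robust eBayes, with array weights and at an adjusted p of 0.10. With 1 array left out, these ran from 0 to 0 and from 0 to 1. The count for the difference between strains was 10 at 1.5-fold and 0 in the other settings, from 0 to 0 with 1 array left out. Genes at an unadjusted p under 0.05 in both strains with the same sign numbered 95, against 498 in series A, 31 in series B, 47 above the median signal, 169 with every row and 159 with array weights, and 70 to 137 with 1 array left out. Genes with both strains on one side of 0 numbered 11184, against 5805 above the median signal and 19726 with every row, where the number tested differs, and 10586 to 11482 with 1 array left out.

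The labels do not say whether replicate numbers pair the animals, and correlations between arrays cannot settle it. After group means, 12 of 36 pairs of arrays with the same number correlated above 0.1, in a range from -0.159 to 0.316, and 3 of 12 within a strain. After label series means as well, 2 of the 36 did. The replicate block gave 1 gene called in the shared response, 0 in each of the other 3 contrasts and 94 genes in both strains, so that it changed no call.

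Of 1614 values for single genes, 1558 kept their sign and side of the threshold, 50 became called, 2 lost the call (Fos, above) and 4 changed sign. Npy was 0.024 in series A and ran from -0.052 to 0.018 with 1 array left out, Arc was -0.036 in series B and Ttr was 7.39e-05 in series B. Of the list medians, 1292 moved by less than 1 SD of the list's mean within groups and 3 by more. These were heat shock chaperones in series A (0.15), the genes the study followed up in series B (0.044) and monoaminergic markers above the median signal (-0.035). How far the number of arrays and the use of mouse probes on hamster RNA limit detection was not tested.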

Other observations

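Further genes of the 69 and 26 were picked after their values were seen and are given as values, with no test. Among those higher in both strains were Selenot (shared log2 difference 0.42), a selenoprotein of the endoplasmic reticulum, Kin (0.38), Olfm3 (0.37), a secreted olfactomedin, and Klf7 (0.40). Mcl1, a survival gene of the Bcl2 family, differed by 0.26, C1ql3, a secreted synaptic organiser, by 0.25, and Plxnc1, a semaphorin receptor, by 0.24. Pdp1, the phosphatase that activates pyruvate dehydrogenase, differed by 0.21 and Bambi, a decoy receptor of the TGF-beta family, by 0.19. The RNA-binding proteins Elavl1 and Cpeb2 differed by 0.22 and 0.21. Replicates 1 to 3 put Elavl1 at 0.45 and replicates 4 to 6 put it at -0.0014, which made it the one gene of the 69 without the sign of its set in both series.

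Among those lower in both strains, Pomc, the precursor of ACTH and beta-endorphin, differed by -0.21, the complex IV assembly factor Smim20 by -0.24 and the splicing factor Sart1 by -0.16. None of these genes had an adjusted p under 0.05 in limma.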
